A study of Mus musculus with 9 samples.

Results

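Long intergenic noncoding RNAs (lincRNAs) are transcripts without a long open reading frame that lie between protein-coding genes. Many are spliced and polyadenylated like an mRNA, yet stay in the nucleus, where some build nuclear bodies, while others act in the cytoplasm as decoys for RNA-binding proteins or microRNAs. Most are present at far fewer copies per cell than mRNAs, and liver lincRNAs are known to differ between feeding states, sexes and disease states. The RNAs described here are 59 lincRNAs whose largest group mean of read counts in mouse liver was at least 3. The data held 422 lincRNA rows and 16755 genes of all kinds.

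Liver tissue of male C57BL/6 mice was sequenced in 3 groups of 3 samples. The untreated group was of the genotype Scd2f/f, in which an exon of Scd2, a stearoyl-CoA desaturase that makes monounsaturated fatty acids, is flanked by loxP sites. The second group was also Scd2f/f and had been injected at the age of 2 weeks with 10 mg/kg of diethyl nitrosamine (DEN), a carcinogen of the liver, and was fed Western alcohol diet (WAD), a liquid feed rich in fat and cholesterol that contains alcohol, from the age of 6 weeks, for a time that the labels and the study's methods give differently. The third group, Scd2f/f;Col1a1-Cre (Scd2f/f;CC), had the same DEN + WAD regimen and a Cre recombinase under the Col1a1 promoter, so that the floxed exon is deleted in cells that express Col1a1, mainly activated hepatic stellate cells and portal fibroblasts, and kept in the other cells of the liver. All groups thus carried the floxed alleles, untreated Scd2f/f;CC mice were not analysed here, and the study describes the treated tissue as liver next to tumors. Scd2 itself had means of 2.46 in untreated, 6.47 in DEN + WAD Scd2f/f and 1.87 in DEN + WAD Scd2f/f;CC liver, where the mean counts all exons of the gene and all cells of the tissue. Comparisons are of DEN + WAD Scd2f/f with untreated Scd2f/f liver, which addresses the regimen, of Scd2f/f;CC with Scd2f/f after DEN + WAD, which addresses the deletion, and of Scd2f/f;CC after DEN + WAD with untreated Scd2f/f liver, in which regimen and deletion cannot be told apart.

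The authors' table gives one mean of normalized read counts for each group, so the values below are the authors' means, with no standard deviation (SD), no test and an unknown depth. A difference between groups is given as the quotient of 2 means, whose sampling error is unknown, and a quotient of 2-fold or more in either direction is counted as past 2-fold. The lincRNAs were chosen by their level, as those where the largest of the 3 group means was at least 3. That choice left 362 lincRNA rows under the minimum, and 1 further gene was left out. The last lincRNAs included were Epb41l4aos, with a largest mean of 3.04, and C730036E19Rik, with 3.07 (2.61 in untreated, 2.29 in DEN + WAD Scd2f/f and 3.07 in DEN + WAD Scd2f/f;CC liver). Just outside it lay 2010320M18Rik and Gm26880, both with 2.99, CT010460.1 with 2.98 and BC002059 with 2.93. Since the largest of the 3 means chose these RNAs, their levels and quotients are descriptions. Of the 59, 34 reached a mean of 3 in all 3 groups, 11 in 2 groups and 14 in 1 group, against 88.7%, 5.64% and 5.65% of the 9768 genes of any type with a largest mean of at least 3.

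The lincRNAs were few and unequal in level. The largest mean was under 10 for 38 of them and under 6 for 36, and it was at least 100 for 6. As a share of the summed means of all genes, the 59 made up 1.78% in untreated liver, 1% in Scd2f/f liver after DEN + WAD and 1.09% in Scd2f/f;CC liver after DEN + WAD. Most of that share came from 3 RNAs of a single ribosomal DNA stretch. Without them, the sum of the other 56 means was 2066 in untreated, 1752 in DEN + WAD Scd2f/f and 2213 in DEN + WAD Scd2f/f;CC liver, and Malat1 and Neat1 together supplied 76.5%, 71.9% and 75.5% of these sums. The median lincRNA had a mean of 3.98, 3.76 and 4.3 in the same order of groups.

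**Figure D1:**
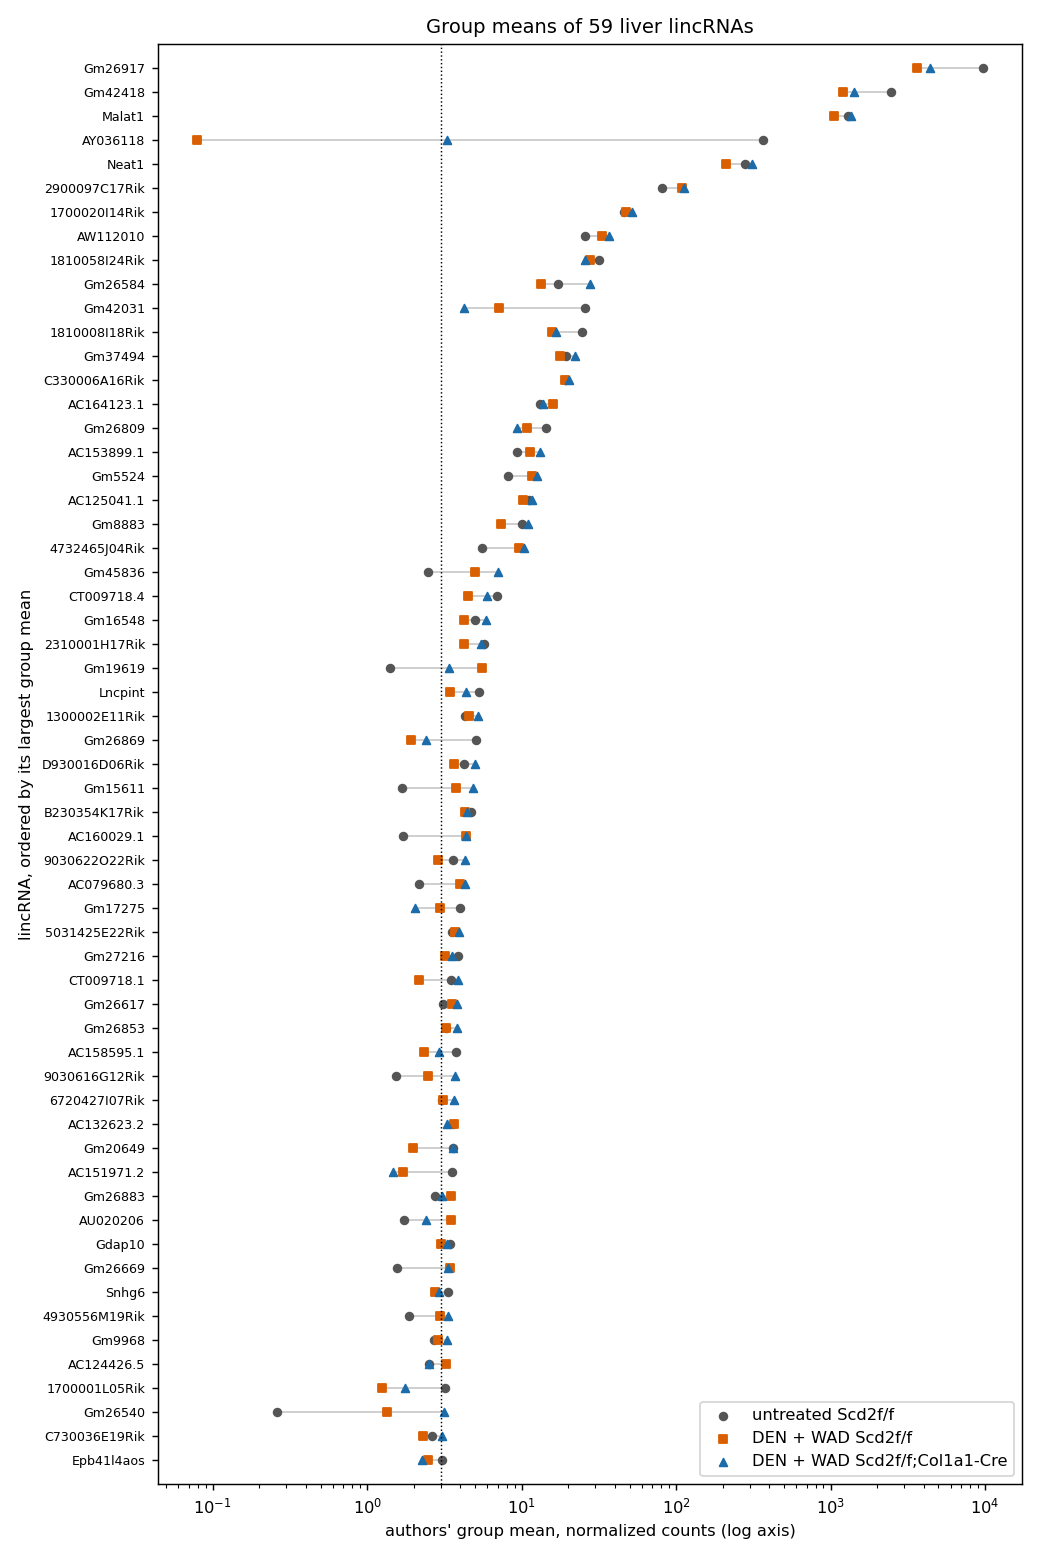
Each row is one of the 59 lincRNAs, ordered by its largest group mean, and the points are the authors' group means of normalized counts on a log axis (circle untreated Scd2f/f, square DEN + WAD Scd2f/f, triangle DEN + WAD Scd2f/f;CC). The dotted line marks the minimum of 3. The largest mean is under 6 in 36 rows, 25 rows have a point left of the dotted line, and AY036118 spans the widest range, from 0.0791 to 367.

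All 59 were matched to GENCODE M21 on GRCm38 (the mm10 assembly), 46 by symbol and 13 by coordinates, and 54 had the same span there. They lay on 16 chromosomes, 1 of them on X. The median exonic length was 2990 bases, from 404 to 20771, with a median of 3 exon blocks, and 7 consisted of 1 block. Although the class is called intergenic, 14 overlapped a protein-coding gene, 10 on the opposite strand and 4 on the same strand, and 8 overlapped a small RNA or rRNA gene. Overlap here is of whole gene spans, introns included, and shared exon bases were not counted. The library kit does not mark strand, so where genes share exon bases their reads cannot be told apart.

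Sequences of a few of these RNAs show what they carry. In 2900097C17Rik, the mouse Norad RNA, which holds Pumilio proteins in the cytoplasm, the Pumilio element TGTANATA occurred 11 times in the transcript of 4915 bases (GENCODE M21). No other of 6058 lincRNA genes had more, and 840 of them (13.9%) had at least 1. The stretch below, bases 2437 to 2536 of the transcript at chr2:156390444-156390543 on the minus strand, holds 2 of them in capitals, side by side.
2900097C17Rik: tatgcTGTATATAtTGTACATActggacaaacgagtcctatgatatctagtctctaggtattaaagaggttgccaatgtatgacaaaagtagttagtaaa

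The RNA 1700020I14Rik, also called Cyrano, is known for a long, nearly perfect pairing with miR-7, which it marks for decay. The site at bases 2935 to 2959 of its 8300-base transcript is shown with the mature miR-7a from RefSeq. Capitals mark the seed of the microRNA (its bases 2 to 8) and the bases that pair with it.
1700020I14Rik: acaacaaaatcaccaatGTCTTCCa
mmu-miR-7a-5p: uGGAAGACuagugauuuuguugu
The site pairs without a break over 13 bases at its 5′ end and 8 bases at its 3′ end, and 4 of its bases face 2 of the microRNA between these runs. A match to the same seed occurs in 11.5% of lincRNA genes.

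The RNA 6720427I07Rik spans the gene of let-7d, a microRNA of a family that restrains growth genes. Both arms of let-7d (RefSeq) are shown with their seeds in capitals, since they lie inside the span counted for this lincRNA, on the same strand, at chr13:48536078-48536099 and chr13:48536024-48536045.
mmu-let-7d-5p: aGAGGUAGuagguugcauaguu
mmu-let-7d-3p: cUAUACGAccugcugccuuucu
The level of 6720427I07Rik was 3.07 in untreated, 3.1 in DEN + WAD Scd2f/f and 3.67 in DEN + WAD Scd2f/f;CC liver. Libraries of polyadenylated RNA do not measure the mature microRNA.

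The highest lincRNA means of all came from a stretch of ribosomal DNA on chromosome 17. Gm26917 (chr17:39843013-39846341, plus strand) had a mean of 9730 in untreated liver, 3640 in Scd2f/f liver after DEN + WAD and 4390 in Scd2f/f;CC liver after DEN + WAD. Gm42418 (chr17:39846958-39848788, plus strand) followed with 2450, 1200 and 1420. AY036118 (chr17:39847113-39848035, minus strand) stood at 367, 0.0791 and 3.27. In each of the 3 RNAs the untreated group was the highest and the DEN + WAD Scd2f/f group the lowest.

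Relative to untreated liver, Gm26917 was 2.67-fold and Gm42418 2.04-fold lower after DEN + WAD in Scd2f/f mice. The log2 quotient of AY036118 was -12.18, and it rests on a mean of 0.0791 in a group whose lowest mean over all genes was 0.0348. In Scd2f/f;CC liver Gm26917 and Gm42418 were 1.21 and 1.18 times their means in Scd2f/f liver after DEN + WAD, and AY036118 was 41.3 times as high.

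Gm42418 and AY036118 are not separate from the 18S rRNA in sequence. The gene CT010467.1, annotated as rRNA on the minus strand at chr17:39846353-39848827, covers all 1831 bases of Gm42418 and all 923 of AY036118, and AY036118 is in turn the reverse complement of a part of Gm42418. The 60 bases at chr17:39847976-39848035 are shown on both strands to make this plain, with the first 10 bases of AY036118 and their complement in capitals.
AY036118: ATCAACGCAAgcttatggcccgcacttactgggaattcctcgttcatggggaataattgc
Gm42418: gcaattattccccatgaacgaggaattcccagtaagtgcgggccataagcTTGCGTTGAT
The means of CT010467.1 were 76300 in untreated, 15800 in DEN + WAD Scd2f/f and 6120 in DEN + WAD Scd2f/f;CC liver. Thus the rRNA was lower again in Scd2f/f;CC liver, 2.58-fold below DEN + WAD Scd2f/f, where the 3 lincRNAs of the stretch were higher. How reads were divided among these overlapping genes, and how much rRNA each library held, was not tested. Values of the 3 RNAs are therefore uncertain, and counts past 2-fold are also given without them below.

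**Figure D2:**
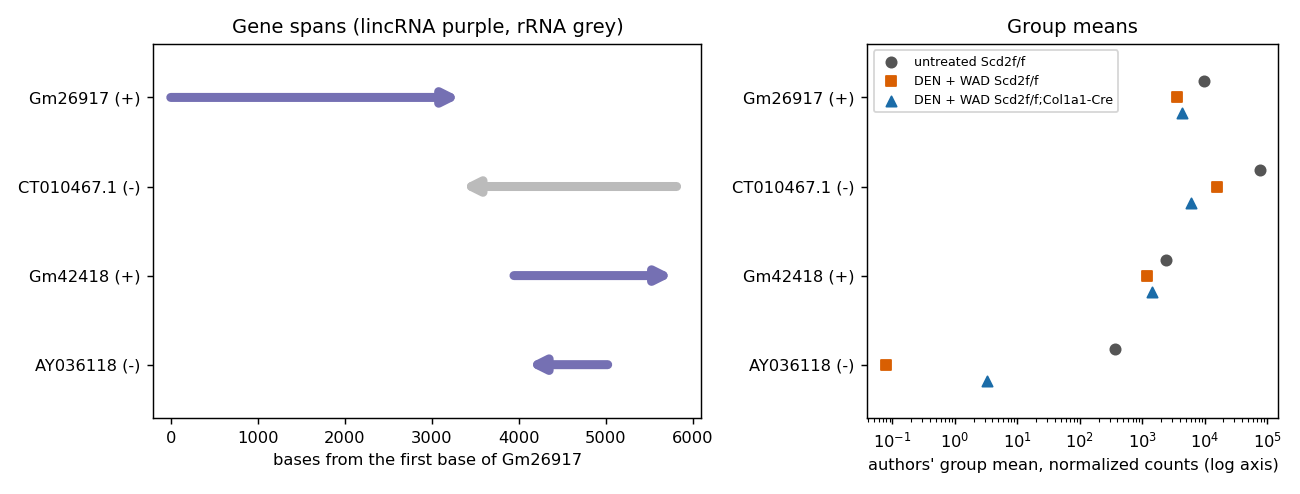
The left panel maps the 4 genes of the stretch by their distance in bases from the first base of Gm26917, with arrows pointing in the direction of transcription (lincRNAs purple, rRNA grey). The right panel gives their group means on a log axis, with CT010467.1 the highest in every group and AY036118 at 367, 0.0791 and 3.27 in untreated, DEN + WAD Scd2f/f and DEN + WAD Scd2f/f;CC liver.

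Both nuclear body RNAs are neighbours on chromosome 19. Malat1 (chr19:5795690-5802672), which gathers at nuclear speckles, stores of splicing factors, had means of 1300 in untreated, 1050 in DEN + WAD Scd2f/f and 1360 in DEN + WAD Scd2f/f;CC liver. Neat1 (chr19:5824708-5845478), the scaffold of paraspeckles, had means of 280, 210 and 312. Both were thus lowest in Scd2f/f liver after DEN + WAD, and highest in Scd2f/f;CC liver. For Malat1 the quotient was 0.808 with the regimen and 1.30 with the deletion. For Neat1 these quotients were 0.750 and 1.49, and neither RNA came near 2-fold. Per kilobase of exon the largest means of Malat1 and Neat1 were 195 and 15.0.

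Of the cytoplasmic RNAs, 2900097C17Rik (Norad) had means of 81.4 in untreated, 110 in DEN + WAD Scd2f/f and 113 in DEN + WAD Scd2f/f;CC liver. It was 1.35 times as high with the regimen, and the mean of Scd2f/f;CC liver was 1.03 times that of Scd2f/f liver after DEN + WAD. 1700020I14Rik (Cyrano; chr2:119594297-119607502) showed means of 45.9, 47.7 and 51.8, a range in which the highest mean was 1.13 times the lowest. Lncpint, a p53-induced RNA that binds the Polycomb complex, was lowest after DEN + WAD in Scd2f/f mice, with 5.26, 3.43 and 4.38 in the same order. A list of 8 RNAs of DNA damage and proliferation held these 3 and had 6 in the table. Of the 6, 4 were higher and 2 lower with the regimen, beside 51.7% higher among all 9768 genes with a largest mean of at least 3. None of these 3 was past 2-fold, and Trp53cor1, a p53 target, was, at the low means of 0.0685 in untreated and 0.17 in DEN + WAD Scd2f/f liver.

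AW112010 (chr19:11047617-11050566) is an RNA of activated immune cells that is induced by interferon and translated from a noncanonical start. Its means were 25.8 in untreated, 33.1 in DEN + WAD Scd2f/f and 36.7 in DEN + WAD Scd2f/f;CC liver. Macrophage markers moved further than this RNA: the summed mean of Adgre1, Cd68, Clec4f, Csf1r and Lyz2 was 76.54, 266.9 and 212.3. On the list of 8 immune and myeloid RNAs, 4 were in the table and all 4 were higher with the regimen. Of all 9768 genes with a largest mean of at least 3, 51.7% were higher with it. AW112010 was the 1 with a mean of at least 3, and the other 3 had largest means of 2.41, 0.319 and 0.244. In bulk tissue, more cells of a type and more RNA per cell cannot be told apart, and the part of cell makeup in the quotients here was not tested.

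1810058I24Rik encodes a short mitochondrial membrane protein (also called Stmp1), although it is classed as a lincRNA in the table. Its means of 31.8 in untreated, 27.6 in DEN + WAD Scd2f/f and 25.9 in DEN + WAD Scd2f/f;CC liver lay within 1.23-fold. The hosts of small nucleolar RNAs (snoRNAs), which release a snoRNA from an intron, were represented by Snhg6, the host of Snord87, with 3.34, 2.74 and 2.9, and by Epb41l4aos, with 3.04, 2.46 and 2.27. Both were highest in untreated liver, and neither was near 2-fold.

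With DEN + WAD in Scd2f/f mice, 14 of the 59 lincRNAs were past 2-fold against the untreated mean (23.7%), 7 higher and 7 lower, beside 8.23% of all 9768 genes, 5.43% higher and 2.81% lower. Low genes were more often past 2-fold in general. Among genes with a largest mean from 3 to under 10 the share was 11.1%, and among the 38 lincRNAs of that range it was 26.3% (10 of 38). Among the 34 lincRNAs with a mean of at least 3 in every group it was 8.82% (3 of 34), beside 4.5% of all genes with such means. These 3 were Gm26917 and Gm42418 of the ribosomal DNA stretch, and Gm42031. Among lincRNAs with such a mean in 2 groups it was 54.5% (6 of 11), beside 36.7% of all genes. With such a mean in only 1 group it was 35.7% (5 of 14), beside 38.4%. Without the ribosomal DNA stretch 11 of 56 were past 2-fold. The median log2 quotient of the 59 was -0.15, beside 0.02 over all genes, with 25 higher, 33 lower and 1 equal.

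**Figure D3:**
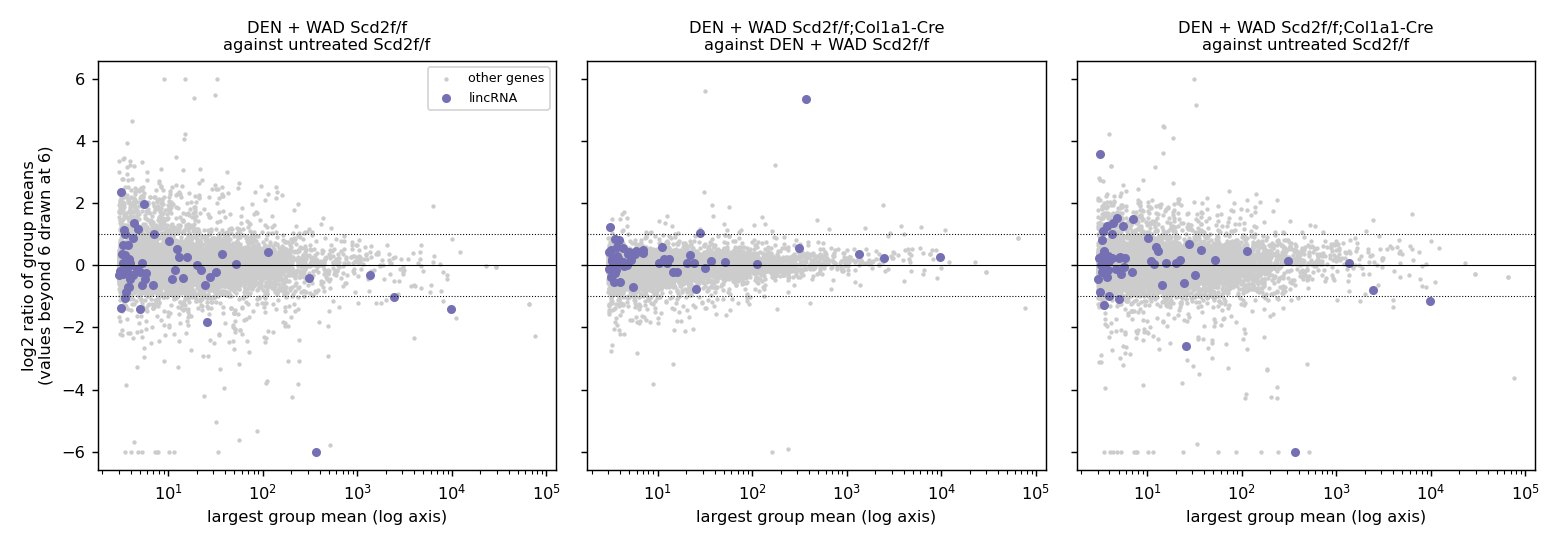
Each panel plots the log2 quotient of 2 group means against the largest group mean of the gene on a log axis, for the 9768 genes with a largest mean of at least 3 (lincRNAs purple, other genes grey). Dotted lines mark 2-fold, and values beyond 6 are drawn at 6. The lincRNAs lie mostly at the low end, 14, 3 and 13 of 59 are past 2-fold in the left, middle and right panel, and in the middle panel none lies below the lower line.

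Gm26540 had the highest quotient with the regimen. It lies antisense to Dennd5b, a Rab activator of lipoprotein secretion, and had means of 0.26 in untreated, 1.34 in DEN + WAD Scd2f/f and 3.16 in DEN + WAD Scd2f/f;CC liver, quotients of 5.15 for the regimen and 2.36 for the deletion. Dennd5b itself, with 95.7, 103 and 115, was far above it. Where the antisense RNA and the gene share exon bases, their reads cannot be told apart here. Both means in the quotient for the regimen were under the minimum of 3. With 1 added to each mean, the log2 quotient of Gm26540 fell from 2.37 to 0.89, below the 1.45 of Gm19619.

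Gm19619 (chr5:91257571-91283421) was next, with means of 1.4 in untreated, 5.54 in DEN + WAD Scd2f/f and 3.4 in DEN + WAD Scd2f/f;CC liver. It was 3.96 times as high with the regimen and was 0.614 times as high in Scd2f/f;CC as in Scd2f/f liver after DEN + WAD. Its nearest protein-coding gene, Btc, which encodes a ligand of the EGF receptor, was 3.79, 3.04 and 2.58 and thus moved the other way with the regimen. AC160029.1 (Gm36041 in GENCODE M21) had means of 1.7, 4.37 and 4.35, and its neighbour Avpr1a, the vasopressin receptor of hepatocytes, had 14, 5.77 and 10.7. For both lincRNAs the treated groups lay above the untreated group, and for AC160029.1 they were level with each other.

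Gm15611 and Gm26669 were higher together with a coding gene close by. Gm15611 (chr5:8998402-8999669) had means of 1.67 in untreated, 3.76 in DEN + WAD Scd2f/f and 4.82 in DEN + WAD Scd2f/f;CC liver. Its start lies 2345 bases from that of Crot, the peroxisomal carnitine octanoyltransferase, on the same strand, and Crot had means of 342, 655 and 717. Gm26669 overlaps Zfp36l1, a protein that directs the decay of AU-rich mRNAs, on the opposite strand. The lincRNA had 1.55, 3.42 and 3.33, and Zfp36l1 had 45.3, 88.3 and 80.5. In both pairs lincRNA and gene were higher with the regimen, at log2 quotients of 1.17 and 0.94 for Gm15611 and Crot and of 1.14 and 0.96 for Gm26669 and Zfp36l1.

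The other 2 lincRNAs past 2-fold and higher with the regimen were just over the line. Gm45836 had means of 2.49 in untreated, 4.99 in DEN + WAD Scd2f/f and 7.02 in DEN + WAD Scd2f/f;CC liver. It overlaps the coding gene Gm20388 on the same strand. AU020206 had 1.72, 3.47 and 2.4. The former was highest in Scd2f/f;CC liver and the latter in Scd2f/f liver.

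Outside the ribosomal DNA stretch, Gm42031 (chr8:85125872-85132289, minus strand) was the furthest below the untreated mean. It had means of 25.6 in untreated, 7.17 in DEN + WAD Scd2f/f and 4.25 in DEN + WAD Scd2f/f;CC liver, 3.57-fold lower with the regimen and 6.02-fold lower in Scd2f/f;CC liver than in untreated liver. It overlaps no other gene, and it is the one lincRNA outside the ribosomal stretch that had a mean of at least 3 in all 3 groups and was past 2-fold with the regimen. The nearest coding gene, Man2b1, a lysosomal mannosidase, had means of 45.1, 69.8 and 70.4 and so was higher where Gm42031 was lower.

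Lower means with the regimen were also found for 3 RNAs of low level. Gm26869, antisense to the zinc finger gene Zfp971, had 5.08 in untreated, 1.91 in DEN + WAD Scd2f/f and 2.39 in DEN + WAD Scd2f/f;CC liver. 1700001L05Rik had 3.2, 1.25 and 1.77, and AC151971.2 (BC049987 in GENCODE M21) had 3.52, 1.71 and 1.46. In each the untreated mean was above both treated means. Gm20649, which overlaps Onecut1, a transcription factor of hepatocytes and bile ducts, on the same strand, had means of 3.58, 1.97 and 3.57, 1.82-fold lower with the regimen and level with untreated in Scd2f/f;CC liver, while Onecut1 had 29.5, 27.1 and 26.4.

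**Figure D4:**
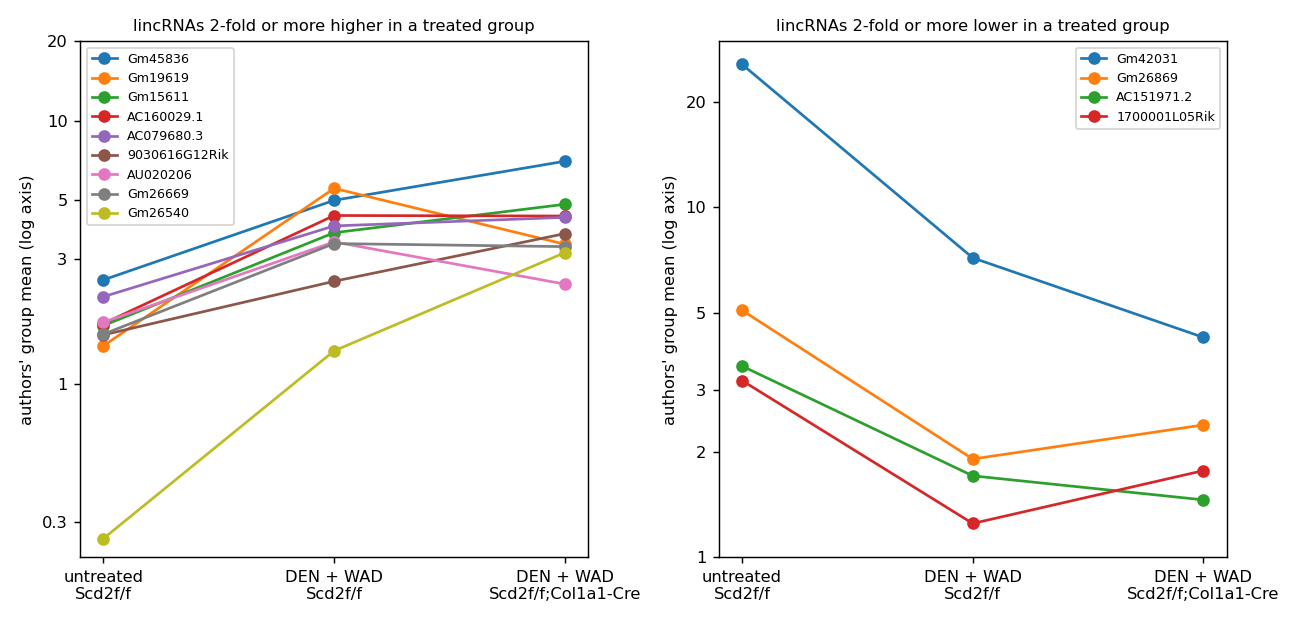
Lines join the authors' group means (log axis) of lincRNAs that were past 2-fold in either treated group against untreated liver, 9 higher on the left and 4 lower on the right, with the 3 RNAs of the ribosomal DNA stretch left out. Gm26540 starts lowest, at 0.26, and Gm42031 covers the widest range on the right, from 25.6 to 4.25.

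With deletion of Scd2 in Col1a1-expressing cells, Scd2f/f;CC against Scd2f/f liver after DEN + WAD, 3 of the 59 lincRNAs were past 2-fold, all higher (5.08%), beside 1.81% of all genes, 0.481% higher and 1.33% lower. For lincRNAs with means of at least 3 in every group it was 2.94% (1 of 34), beside 0.819% of such genes. With such a mean in 2 groups it was 9.09% (1 of 11), beside 8.17%. With such a mean in only 1 group it was 7.14% (1 of 14), beside 11.1%. These 3 were AY036118, Gm26540 and Gm26584, and each overlaps another gene. Gm26540 met the minimum only in Scd2f/f;CC liver, and the quotient of AY036118 rests on a mean of 0.0791 in Scd2f/f liver. Gm26584 (chr8:40862395-40865647), antisense to Slc7a2, the transporter of arginine and lysine, had means of 17.2 in untreated, 13.4 in DEN + WAD Scd2f/f and 27.9 in DEN + WAD Scd2f/f;CC liver. Slc7a2 had 311, 376 and 470. In Scd2f/f;CC liver the lincRNA was thus 2.08 times and the coding gene 1.25 times as high as in Scd2f/f liver. None of the 43 lincRNAs that overlap no coding or rRNA gene was past 2-fold.

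Most lincRNAs were slightly higher in Scd2f/f;CC liver. There were 45 higher and 14 lower, with a median log2 quotient of 0.19, beside 0.01 over all genes. The share higher was 76.3% for the lincRNAs, 75% without the ribosomal DNA stretch (42 of 56), and 51.2% for protein-coding genes. Among other noncoding classes it was 61.3% for antisense RNAs (31 genes), 67.5% for processed transcripts (40 genes) and 78.3% for the class TEC (23 genes), which are transcripts still to be experimentally checked. A largest mean in Scd2f/f;CC liver was held by 30 of the 59, in untreated liver by 21 and in Scd2f/f liver after DEN + WAD by 8, and since the largest mean decided which RNAs were included, these shares are not independent of the choice.

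Just below 2-fold were CT009718.1, with 3.49 in untreated, 2.17 in DEN + WAD Scd2f/f and 3.88 in DEN + WAD Scd2f/f;CC liver, and Gm20649 as given above. 9030616G12Rik, next to the methyltransferase gene Mettl7b, had means of 1.54, 2.46 and 3.73 with the highest in Scd2f/f;CC liver. Gm8883 had 10, 7.34 and 11, with the highest mean in Scd2f/f;CC liver. On the lower side Gm42031 was 0.593 times, Gm19619 0.614 times and Gm17275, antisense to the histone gene H3f3a, 0.686 times its mean in Scd2f/f liver. Gm17275 had 3.98, 2.96 and 2.03. The lower end also held AC124426.5, with 2.5, 3.25 and 2.52, AC164123.1, with 13.1, 16 and 13.7, and Gm26809, with 14.4, 10.9 and 9.37. All of these lay within 2-fold with the deletion.

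Against untreated liver, Scd2f/f;CC liver after DEN + WAD had 13 of 59 lincRNAs past 2-fold (22%), 8 higher and 5 lower, beside 6.44% of all genes, 3.91% higher and 2.53% lower. For the 34 lincRNAs with means of at least 3 in every group the share was 5.88% (2), beside 3.36% of such genes. With such a mean in 2 groups it was 63.6% (7 of 11), beside 34.5%. With such a mean in only 1 group it was 28.6% (4 of 14), beside 26.8%. All 8 that were higher had an untreated mean under 3, so they met the minimum only through treated groups. The untreated group and the DEN + WAD groups are shared with the other comparisons, so these counts repeat much of the same data. The 8 higher were Gm26540 at 12.2 times, Gm15611 at 2.89, Gm45836 at 2.82, AC160029.1 at 2.56, Gm19619 at 2.43, 9030616G12Rik at 2.42, Gm26669 at 2.15 and AC079680.3 at 2 times the untreated mean. AC079680.3 (C730027H18Rik in GENCODE M21) had means of 2.15 in untreated, 3.99 in DEN + WAD Scd2f/f and 4.3 in DEN + WAD Scd2f/f;CC liver. The 5 lower were AY036118, Gm26917, Gm42031, AC151971.2 and Gm26869. The median log2 quotient was 0.15, beside 0.04 over all genes, with 37 higher and 22 lower. Without the ribosomal DNA stretch 37 were higher and 19 lower.

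LincRNAs are often asked about for the genes beside them. The median distance from a lincRNA start to the nearest start of a protein-coding gene with a largest mean of at least 3 was 58623 bases. It was within 10 kb for 13 of the 59 and within 1 kb for 4. With the regimen, 25 of 59 lincRNAs (42.4%) had the sign of the nearest coding gene, beside 53.9% of 9392 coding genes and their own nearest coding gene. With the deletion it was 34 of 59 (57.6%), beside 53.4%, and for Scd2f/f;CC against untreated liver 32 of 59 (54.2%), beside 53.3%. The lincRNA share was thus below that of coding genes with the regimen and above it in the other comparisons, and these differences were not tested. All 3 RNAs of the ribosomal DNA stretch had Mut as the nearest coding gene, 1086650 to 1091672 bases away. They had the sign of Mut with the deletion and the opposite sign in the other comparisons.

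Head-to-head pairs, which lie on opposite strands and point away from each other with start sites under 1 kb apart, were 3. B230354K17Rik lies 145 bases from Cdc5l, a splicing factor, 5031425E22Rik 172 bases from Kmt2e, a chromatin regulator, and 4930556M19Rik 205 bases from Rai14, an actin-binding protein. 4930556M19Rik had means of 1.88 in untreated, 2.98 in DEN + WAD Scd2f/f and 3.32 in DEN + WAD Scd2f/f;CC liver, and Rai14 had 14.8, 18.5 and 17.7. The other 2 lincRNAs stayed within 1.11-fold over the 3 groups.

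Several neighbours encode central liver proteins without a like movement of the lincRNA with the regimen. 1300002E11Rik overlaps the coding gene Map3k13 on the same strand. Its start lies 6474 bases from that of Ehhadh, an enzyme of peroxisomal fatty acid oxidation. Ehhadh had means of 121 in untreated, 255 in DEN + WAD Scd2f/f and 328 in DEN + WAD Scd2f/f;CC liver, and the lincRNA had 4.29, 4.58 and 5.23. Gm16548, antisense to the coagulation factor gene F5 and to Selp, had 5.01, 4.22 and 5.9, and F5 had 465, 667 and 722. 9030622O22Rik, beside the liver transcription factor gene Foxa2, had 3.61, 2.89 and 4.3, and Foxa2 had 8.6, 10.1 and 9. In these pairs the gene was higher with the regimen, while the lincRNA was level or lower. In Scd2f/f;CC liver after DEN + WAD, lincRNA and gene were both above their untreated means in each pair.

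**Figure D5:**
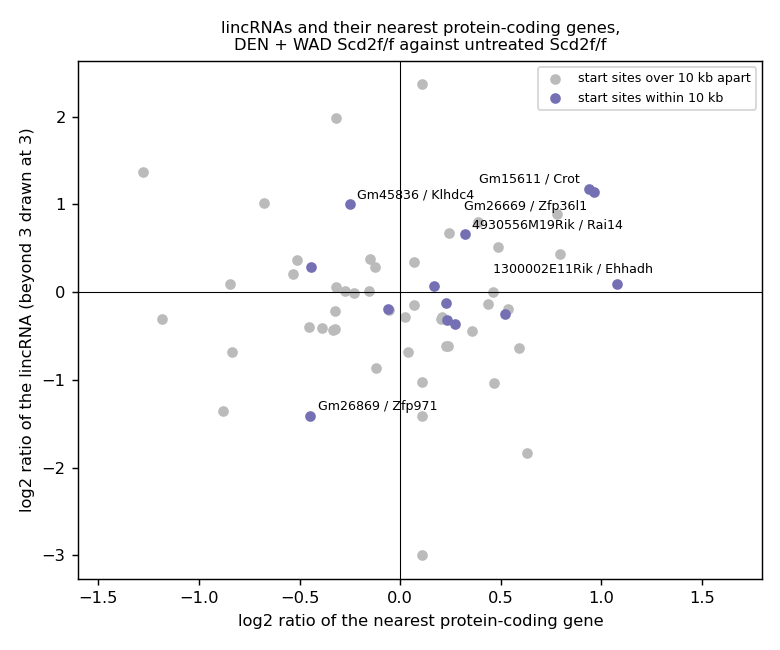
Each point is a lincRNA, with the log2 quotient of its nearest protein-coding gene on the x axis and its own on the y axis, both for DEN + WAD Scd2f/f against untreated Scd2f/f liver (purple, start sites within 10 kb, grey, further apart). Values beyond 3 are drawn at 3. Gm15611 with Crot and Gm26669 with Zfp36l1 lie at the upper right, and Ehhadh is at 1.08 where 1300002E11Rik is at 0.09.

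Promoters from RefSeq (GRCm38.p6, 250 bases before to 50 bases after the start) were found for 24 of the 59, and the start lay within 50 bases of that in the table for 14. The median GC content was 50% for these and 52.7% over all 32817 promoters. Of 9 motifs searched on both strands, TATAAA was in 25% of the 24 and 13.6% of all promoters, CCAAT in 41.7% and 37.4%, GGGCGG in 25% and 35.6%, CACGTG in 16.7% and 7.15%, and TGACGTCA in 12.5% and 1.79%. The AP-1 motif TGANTCA was in 8.33% and 7.81%, the paired core of the interferon response element in 4.17% and 3.43%, TGACNNNGC in 8.33% and 12.4%, and CAAAGTCCA in 0% and 0.475%. The first motif listed was found in the promoters of AY036118, Gdap10, Gm42031 and 9030622O22Rik. Their RefSeq starts lie 50350, 2244, 475 and 145 bases from the starts in the table. Where the starts lay within 50 bases, only the promoters of 9030616G12Rik and Gm9968 had this motif. Its share of 25% thus rests mostly on promoters away from the start in the table. With 24 promoters, 1 promoter more or less is a step of 4.17 percentage points, and a match in the letters is not a bound site.

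The promoters of 3 lincRNAs that were past 2-fold with the regimen are shown with their motifs in capitals. That of Gm42031 (chr8:85131765-85132064, minus strand), the furthest below the untreated mean outside the ribosomal DNA stretch, has TATAAA 27 bases before the RefSeq start, which lies 475 bases from the start in the table. That of 1700001L05Rik (chr15:83367248-83367547, minus strand), also lower, has 4 matches to GGGCGG and 2 to CACGTG. That of AU020206 (chr7:75782071-75782370, minus strand), which was higher, has 3 matches to CCAAT and 1 to GGGCGG.
Gm42031: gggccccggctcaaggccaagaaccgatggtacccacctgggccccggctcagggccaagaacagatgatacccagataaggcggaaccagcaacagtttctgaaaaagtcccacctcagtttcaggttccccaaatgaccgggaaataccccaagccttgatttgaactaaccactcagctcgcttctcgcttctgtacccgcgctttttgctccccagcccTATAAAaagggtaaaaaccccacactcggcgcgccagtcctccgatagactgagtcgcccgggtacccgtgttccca
1700001L05Rik: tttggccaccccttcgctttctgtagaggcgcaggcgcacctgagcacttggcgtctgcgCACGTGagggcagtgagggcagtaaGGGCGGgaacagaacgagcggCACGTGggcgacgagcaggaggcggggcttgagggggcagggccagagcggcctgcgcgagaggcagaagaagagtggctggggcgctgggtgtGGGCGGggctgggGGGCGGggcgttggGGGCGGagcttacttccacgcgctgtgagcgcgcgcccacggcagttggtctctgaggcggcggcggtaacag
AU020206: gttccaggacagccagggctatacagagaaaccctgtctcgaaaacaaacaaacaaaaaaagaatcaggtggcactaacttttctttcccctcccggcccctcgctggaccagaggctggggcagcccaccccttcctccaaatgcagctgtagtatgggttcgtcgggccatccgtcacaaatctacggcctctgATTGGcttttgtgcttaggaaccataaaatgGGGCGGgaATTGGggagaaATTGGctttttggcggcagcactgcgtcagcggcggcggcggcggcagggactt

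Markers of several cell types differed between the groups. Summed means of the markers, from untreated to DEN + WAD Scd2f/f to Scd2f/f;CC, were 122, 246.8 and 121 for stellate cells and fibroblasts (6 of 6 markers lower with the deletion), 58.67, 53.14 and 19.11 for cholangiocytes (5 of 5 lower), and 30570, 27820 and 31060 for hepatocytes (4 of 4 higher). Markers of T and NK cells summed to 0.9644, 4.478 and 2.143, of B cells to 0.877, 1.714 and 1.873, of neutrophils to 0.565, 2.811 and 2.288, of dividing cells to 2.551, 13.01 and 7.486, and of endothelial cells to 91.54, 114.5 and 117.8. With the deletion, 3 of 5 endothelial markers were lower and 2 higher, although their sum was slightly higher. Lower with it were 5 of 5 markers of T and NK cells, 2 of 2 of neutrophils and 3 of 3 of dividing cells. All 4 B cell markers were higher. Hepatocyte markers were the highest by far in every group, as the label of liver tissue has it. The part of these differences in the lincRNA quotients was not tested.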

How the data were processed

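Polyadenylated RNA of 9 mouse liver samples (3 in each of 3 groups) was sequenced by the authors with a TruSeq V2 kit. Per the submitters' processing notes STAR 2.6.1 and Partek 6 were used with the mm10 assembly; the study's methods name the E/M quantification of Partek with Gencode M3 genes, upper-quartile normalization and Gene Specific Analysis. The deposited table gives one signal per group, a least-squares mean of the normalized read counts rounded to 3 significant digits, for 16755 genes. Its 8 columns of the authors' own comparisons (p-values, FDR, ratios and fold changes) were not used, and 0 columns hold single samples. The depth of each sample is unknown, and the tests planned for single samples could not be run.

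Means were divided within Python 3.11.15 (NumPy 2.4.6, pandas 2.3.3, Matplotlib 3.10.9), with no pseudocount; the step was tested on simulated data. The named lincRNAs are the 10 with the highest largest mean, the 8 highest and 8 lowest quotients of each comparison, those on 8 lists of known RNAs, in a head-to-head pair, or within 5% of the minimum. Others beside a neighbouring gene were chosen after their values were seen. The lincRNAs and lists were chosen with earlier results of these data known. Alternatives were other folds, minimums, a pseudocount, centring, and leaving out overlapping genes. Sequences came from RefSeq and GENCODE M21.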

Additional observations from a re-analysis of the deposited data

How the results depend on the processing

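No paired analysis was possible because the columns carry group means and no single samples; leaving out each replicate was not run for the same reason. The count of lincRNAs past 2-fold with DEN + WAD in Scd2f/f mice, 14 of 59, became 24 at 1.5-fold and 4 at 3-fold, 23 of 145 with a minimum of 1 and 4 of 21 with a minimum of 10, 6 with a pseudocount of 1, and 8 of 43 without lincRNAs that overlap a coding or rRNA gene. For Scd2f/f;CC against Scd2f/f liver after DEN + WAD, the 3 became 8 at 1.5-fold, 1 at 3-fold, 7 with a minimum of 1, and 0 without overlapping lincRNAs. For Scd2f/f;CC against untreated liver, the 13 became 21 at 1.5-fold, 3 at 3-fold, 27 with a minimum of 1, 3 with a minimum of 10, 6 with a pseudocount of 1, and 8 without overlapping lincRNAs. Centring on the median of all genes gave 12, 3 and 13. Leaving out overlapping lincRNAs and the ribosomal DNA stretch were chosen after the data were seen, and without the stretch the counts were 11, 2 and 11. Adding 1 to each mean shrinks quotients of low genes by construction: of the named lincRNAs past 2-fold it kept 6 of 14, 2 of 3 and 6 of 13, and none of these changed sign with it or with centring. The medians moved by less than 0.1 on the log2 scale. Without single samples and with an unknown depth, the sampling error of the quotients is unknown, and 38 of the 59 lincRNAs have a largest mean under 10.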

Other observations

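Other noncoding RNAs of the same table, outside the class of lincRNAs, also differed between groups. Of 23 snoRNAs with a largest mean of at least 3, 22 were lower in DEN + WAD Scd2f/f than in untreated liver, 13 past 2-fold. All 17 small nuclear RNAs (gene type snRNA) with such a mean were lower, 15 past 2-fold. Of all 9768 genes, 2.81% were past 2-fold and lower. With the deletion, 18 of the 23 snoRNAs and 14 of the 17 small nuclear RNAs were higher than in Scd2f/f liver, beside 51.8% of all genes. None of these snoRNAs and small nuclear RNAs was past 2-fold with the deletion. Rn7s1, the RNA of the signal recognition particle, had means of 65300 in untreated, 27500 in DEN + WAD Scd2f/f and 51000 in DEN + WAD Scd2f/f;CC liver. Rmrp and Rpph1, the RNAs of RNase MRP and RNase P, had 1330, 746 and 936, and 4100, 2590 and 3650. Such RNAs mostly lack a poly(A) tail, while the libraries were made from polyadenylated RNA, and the part of this in the values was not tested.

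Of 18 hosts of snoRNAs in the table, 14 were lower and 4 higher with the regimen, with a median log2 quotient of -0.30 and none past 2-fold, and Gas5 had means of 23, 16.6 and 16.5. Of 6 imprinted RNAs 4 were lower, among them Meg3 with 1.34, 0.763 and 0.575. Of 6 microRNA hosts 3 were higher and 3 lower, and of 3 X inactivation RNAs 1 was higher and 2 lower. Of 5 RNAs of liver metabolism 2 were higher and 3 lower with the regimen, and all 5 were higher with the deletion, 1 of them (Gm15622) past 2-fold. Of all 9768 genes with a largest mean of at least 3, 51.7% were higher with the regimen and 51.8% with the deletion. For processed transcripts with such a mean these shares were 40% and 67.5%, and for antisense RNAs 45.2% and 61.3%. The lists also hold RNAs under that mean, and their counts were not tested against these shares. At low level, Gm15441 had means of 0.107 in untreated, 0.838 in DEN + WAD Scd2f/f and 1.39 in DEN + WAD Scd2f/f;CC liver. Gm15622 had 1.41, 0.292 and 2.01 in the same order. Gm16551, an RNA that restrains lipogenesis, had means of 13.1 in untreated, 2.41 in DEN + WAD Scd2f/f and 2.54 in DEN + WAD Scd2f/f;CC liver, and it overlaps the span of the lincRNA Gm20649.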
